A study of Homo sapiens with 15 samples.

Results

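CHAC1, SLC7A11 and 8 other genes of glutathione metabolism were followed in C42B cells after 6 h of drug treatment. The members were chosen by gene symbol: CHAC1, CHAC2, SLC7A11, GCLC, GCLM, GSS, GSR, GPX4, CTH and CBS. All 10 were measured, by 11 of the 21448 probe sets on the array, and they are 10 of the 17687 genes tested. CHAC1 was picked because it had stood out among the drug responses of these same arrays, so its values are given as a description and without a test. The other 9 members were chosen for what they do, but with earlier results of these arrays known, and were tested.

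C42B is an established human prostate cancer line that grows without androgen support, derived from LNCaP. RNA was taken from cells given the vehicle 0.125% DMSO (3 arrays), 10 µM enzalutamide (2 arrays), 15 µM PF-543 (3 arrays) or 15 µM ABC294640 (1 array), and from cells given 10 µM enzalutamide with 15 µM PF-543 (3 arrays) or with 15 µM ABC294640 (3 arrays). Enzalutamide blocks the androgen receptor, and PF-543 and ABC294640 (opaganib) are inhibitors of sphingosine kinases. All arrays come from 1 cell line in medium with serum, no DMSO percentage is given for the treated cells, and nothing in the labels tells if the replicates came from separate cultures. The p-values then cover only the spread among these samples, part or all of which may be technical.

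Glutathione is a tripeptide of glutamate, cysteine and glycine and is the main soluble thiol of the cell. Cysteine limits its synthesis, and it is either imported as cystine through the exchanger of which SLC7A11 is the transport subunit, or made from methionine by CBS and CTH in the transsulfuration pathway. GCLC and GCLM join glutamate and cysteine, GSS adds glycine, GSR returns the oxidised form to the reduced one, and GPX4 spends glutathione to remove lipid peroxides, which guards cells against ferroptosis. CHAC1 and CHAC2 work the other way, by cleaving glutathione in the cytosol. CHAC1 and SLC7A11 are known targets of ATF4, which drives gene expression in the integrated stress response, and GCLC, GCLM and SLC7A11 are known targets of NRF2, the factor of the antioxidant response.

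Promoter sequences are shown first, as a description, and a link between their motifs and the differences between groups was not tested. Entries of the RefSeq table (GRCh38.p14) were used for 7 of the 10 members, CHAC1, CHAC2, GCLC, GCLM, GPX4, CTH and CBS. The 250 bases before the first listed start of each were searched on both strands. SLC7A11, GSS and GSR were not searched. The motifs were the C/EBP-ATF element that ATF4 binds (TGATGNAA), the CRE/ATF core (TGACG) and the antioxidant element that NRF2 binds (TGACNNNGC); the last can overlap the CRE/ATF core. Of the 35116 listed promoters searched, 3.14% held the C/EBP-ATF element in this window, 21.2% the CRE/ATF core and 10.9% the antioxidant element. The windows of CHAC1 (chr15:40953221-40953470, + strand), of its relative CHAC2 (chr2:53767533-53767782, + strand), of GCLM (chr1:93909431-93909680, - strand) and of CTH (chr1:70411018-70411267, + strand) are printed 5′ to 3′ with the matches in capitals.
CHAC1: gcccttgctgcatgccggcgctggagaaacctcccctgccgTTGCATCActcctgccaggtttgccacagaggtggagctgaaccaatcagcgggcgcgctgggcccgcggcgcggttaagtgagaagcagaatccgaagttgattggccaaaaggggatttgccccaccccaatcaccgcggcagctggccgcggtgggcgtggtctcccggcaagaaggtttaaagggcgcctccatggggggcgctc
CHAC2: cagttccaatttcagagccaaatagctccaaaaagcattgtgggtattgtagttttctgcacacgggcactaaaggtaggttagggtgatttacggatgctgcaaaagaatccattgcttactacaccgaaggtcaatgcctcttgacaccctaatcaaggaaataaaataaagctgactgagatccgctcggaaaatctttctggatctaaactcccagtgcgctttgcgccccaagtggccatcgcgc
GCLM: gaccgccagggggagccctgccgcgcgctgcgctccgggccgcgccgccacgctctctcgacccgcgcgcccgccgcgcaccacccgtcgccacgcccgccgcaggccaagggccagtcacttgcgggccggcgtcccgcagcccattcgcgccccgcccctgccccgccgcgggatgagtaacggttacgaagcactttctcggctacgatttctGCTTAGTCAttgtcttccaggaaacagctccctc
CTH: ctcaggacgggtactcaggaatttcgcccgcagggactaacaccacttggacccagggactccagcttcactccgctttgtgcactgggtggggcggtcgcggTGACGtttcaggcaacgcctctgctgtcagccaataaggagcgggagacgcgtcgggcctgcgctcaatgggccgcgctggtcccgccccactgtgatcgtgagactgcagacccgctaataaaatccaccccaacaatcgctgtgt

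CHAC1 held a C/EBP-ATF element, TTGCATCA as read on this strand, from base -209 to base -202 before the start, and no other of the 7 members matched that motif. CHAC2 held no match to any of the 3 motifs, and neither did GCLC. GCLM and CBS each held an antioxidant element, at bases -34 to -26 and -83 to -75. CTH and GPX4 each held a CRE/ATF core, at bases -147 to -143 and -99 to -95. These matches describe the letters in the window and do not show that a factor was bound.

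**Figure D1:**
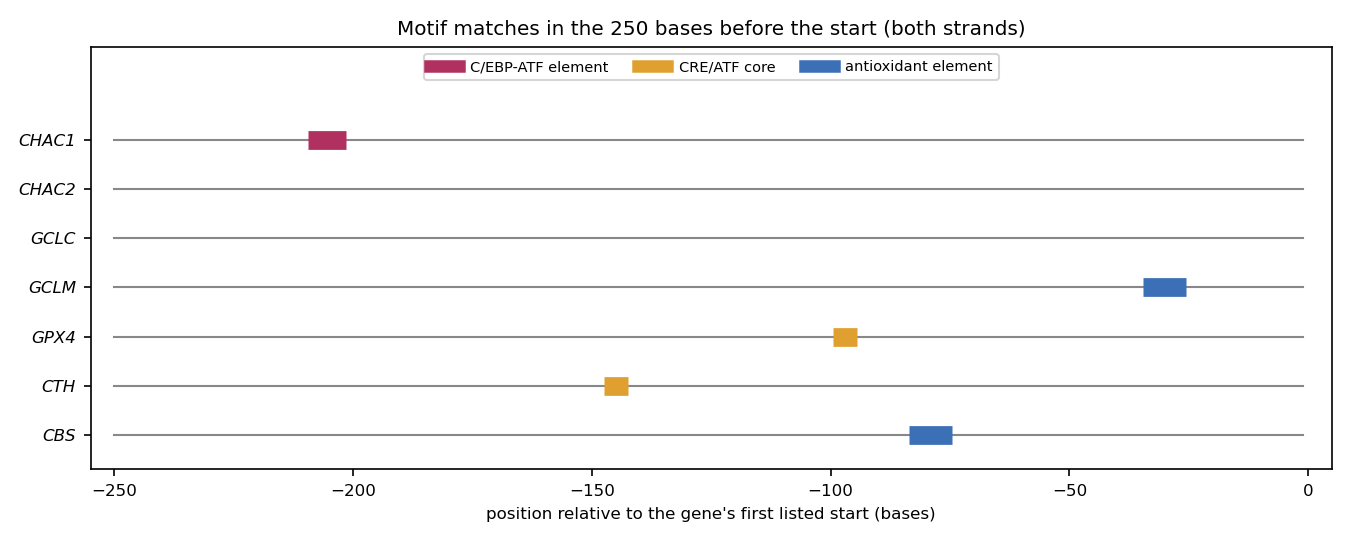
Motif matches on either strand in the 250 bases before the first listed start of 7 members; the horizontal axis gives the distance from the start in bases, and coloured blocks mark the C/EBP-ATF element, the CRE/ATF core and the antioxidant element. The C/EBP-ATF block of CHAC1 lies at -209 to -202, and the lines of CHAC2 and GCLC carry no block.

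Prostate luminal markers were high and those of other cell types mostly low. Of 10 luminal markers 8 were measured, with means over the 15 arrays from 9.62 for TMPRSS2 to 15.9 for KLK3 in log2 units, while the basal keratins KRT5 and KRT14 had means of 4.03 and 4.41. Endothelial, immune, hepatocyte and erythroid markers lay between 3.79 and 6.8, and the fibroblast list between 5.53 and 9.15, its highest being COL1A2. Column medians were 6.71 to 6.76 on all arrays. The 3 DMSO arrays stood apart from the 12 treated ones, with scores of 18.9 to 24.8 on the first principal component against -11.6 to 0.0296, and with an SD over all probe sets of 3.295 to 3.314 against 3.324 to 3.364. For each member, differences from DMSO are therefore set beside those of a drug added to another drug, where no DMSO array enters the difference, although the spread behind its p still comes from all 15 arrays.

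CHAC1 encodes the stress-induced enzyme that cleaves glutathione. Its log2 level was 10.54, 10.63 and 10.71 on the DMSO arrays and 10.73 on the ABC294640 array. It was 11.31, 11.22 and 11.42 with PF-543 and 11.94 and 11.69 with enzalutamide. With enzalutamide plus ABC294640 it was 12.33, 12.11 and 12.12, and with enzalutamide plus PF-543 it was 12.48, 12.72 and 12.6. No group overlapped another. From lowest to highest, the means stood in the order DMSO, ABC294640, PF-543, enzalutamide, enzalutamide plus ABC294640 and enzalutamide plus PF-543. The ABC294640 array lay 0.10 above the DMSO mean, and the SD among arrays of 1 group was 0.12 for this gene.

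Against DMSO, CHAC1 was 2.28-fold higher with enzalutamide (log2 1.19, SE 0.12), 1.61-fold with PF-543 (log2 0.69, SE 0.11) and 1.07-fold on the ABC294640 array (log2 0.10, SE 0.15). It was 2.95-fold higher with enzalutamide plus ABC294640 (log2 1.56, SE 0.11) and 3.93-fold with enzalutamide plus PF-543 (log2 1.97, SE 0.11). From largest rise to largest fall, it was number 1 of 17687 genes for the ABC294640 combination and number 2 for the PF-543 combination. In the same order it was number 5 for enzalutamide, number 64 for PF-543 and number 5458 for the ABC294640 array. These comparisons share the DMSO arrays.

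The differences were at least as large where no DMSO array was used. Enzalutamide added to PF-543 took CHAC1 from a mean of 11.32 to 12.6, 2.43-fold (log2 1.28, SE 0.11), and enzalutamide added to ABC294640 took it from 10.73 to 12.19, 2.74-fold (log2 1.46, SE 0.15). PF-543 added to enzalutamide took it from 11.81 to 12.6, 1.72-fold (log2 0.79, SE 0.12). ABC294640 added to enzalutamide gave 1.29-fold (log2 0.37, SE 0.12), where the single array of ABC294640 against DMSO had given 1.07-fold. Without replicate 1 of enzalutamide that difference was log2 0.50, and without replicate 2 it was 0.25.

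For CHAC1, each combination can be set beside the sum of its single drugs. Enzalutamide and PF-543 alone summed to log2 1.88 above DMSO and their combination lay at 1.97, an interaction of 0.10 (SE 0.16). Enzalutamide and ABC294640 summed to 1.29 and their combination lay at 1.56, an interaction of 0.27 (SE 0.19) that rests on the single ABC294640 array.

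**Figure D2:**
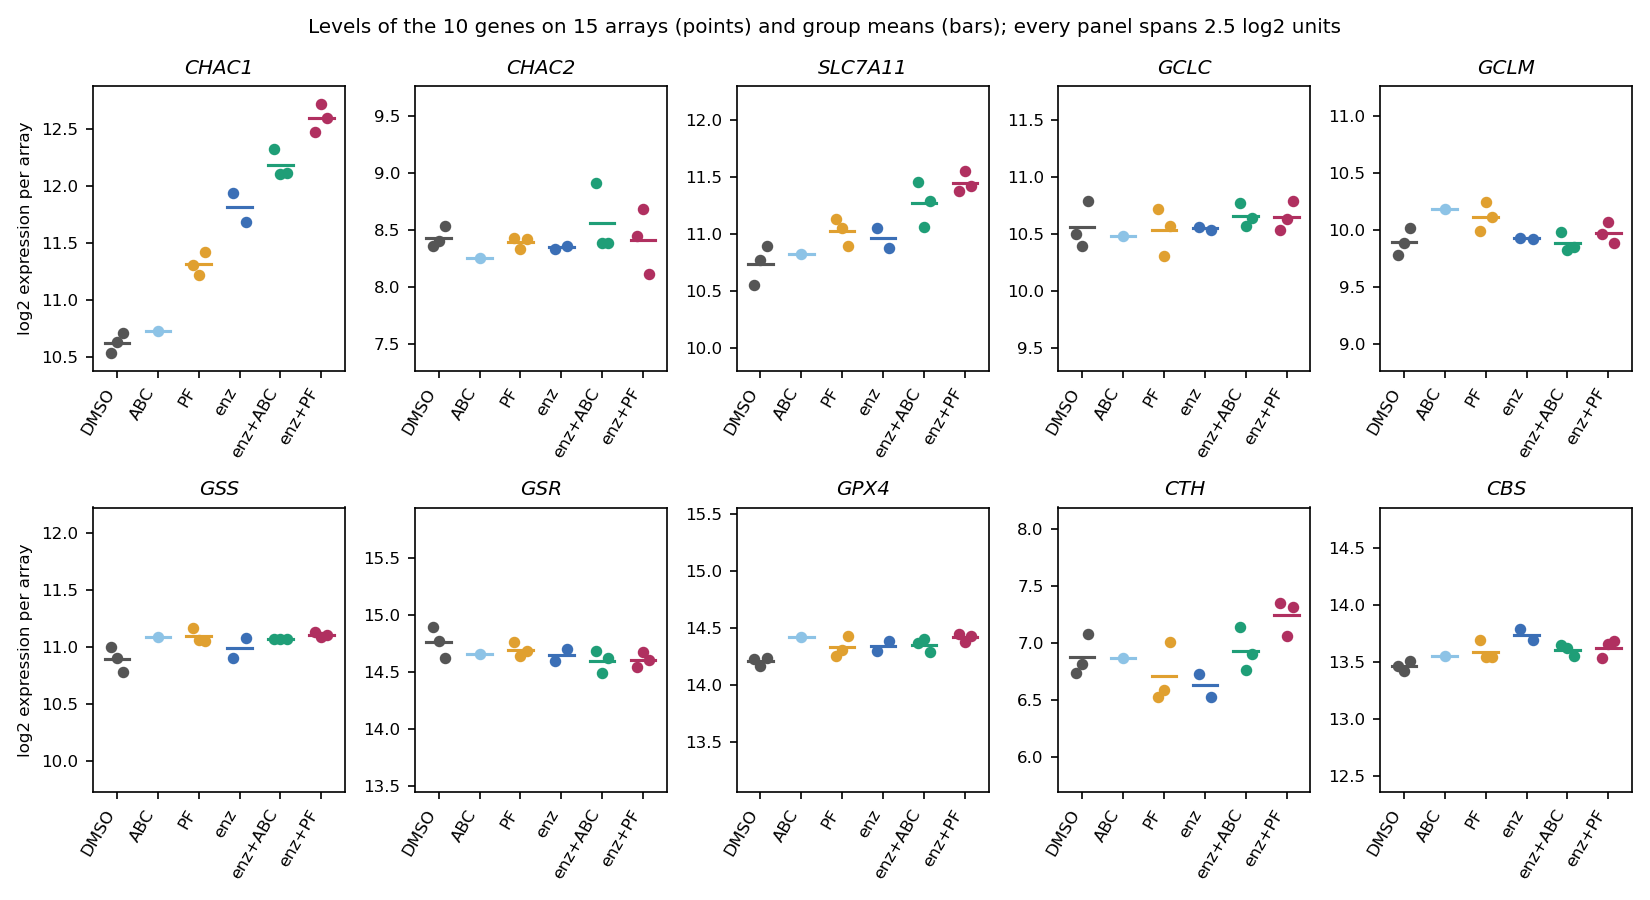
Log2 expression of the 10 members on each of the 15 arrays (points) with group means (bars); the groups are DMSO, ABC294640 (ABC), PF-543 (PF), enzalutamide (enz) and the combinations, and every panel spans the same 2.5 log2 units. CHAC1 climbs from 10.54 to 12.72 with no overlap between groups, SLC7A11 reaches 11.55 with enzalutamide plus PF-543, and no other panel spans more than the 0.82 of CTH.

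CHAC2, the close relative of CHAC1 that cleaves glutathione at a slower rate and is made constitutively, stayed near its DMSO level. Its values were 8.36, 8.4 and 8.53 with DMSO, 8.25 with ABC294640, 8.43, 8.33 and 8.42 with PF-543, and 8.33 and 8.36 with enzalutamide. They were 8.91, 8.38 and 8.38 with enzalutamide plus ABC294640 and 8.44, 8.68 and 8.11 with enzalutamide plus PF-543. The combinations spread widest and overlapped DMSO. With enzalutamide plus PF-543, where CHAC1 was 3.93-fold higher, the difference of CHAC2 from DMSO was log2 -0.02 (95% CI -0.36 to 0.32, limma adjusted p = 0.966). Without DMSO arrays it was 0.02 for enzalutamide added to PF-543 (95% CI -0.32 to 0.35) and 0.07 for PF-543 added to enzalutamide (95% CI -0.31 to 0.44). The largest such difference of CHAC2, 0.31 (95% CI -0.17 to 0.78), was for enzalutamide added to the single ABC294640 array.

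SLC7A11, which brings cystine into the cell in exchange for glutamate, was the 1 tested member that rose. Its log2 level was 10.55, 10.77 and 10.9 with DMSO, 10.83 with ABC294640, 11.13, 11.05 and 10.9 with PF-543, and 11.05 and 10.88 with enzalutamide. It was 11.46, 11.06 and 11.29 with enzalutamide plus ABC294640 and 11.38, 11.55 and 11.42 with enzalutamide plus PF-543. Both combinations lay wholly above DMSO, while the arrays of each single drug overlapped the DMSO range. Its group means ran in almost the same order as those of CHAC1, with PF-543 (11.03) and enzalutamide (10.96) exchanged.

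With enzalutamide plus PF-543 SLC7A11 was 1.64-fold above DMSO (log2 0.71, SE 0.12, 95% CI 0.44 to 0.98, limma adjusted p = 0.0146), higher in 3 of 3 arrays. Of the 9 tested members 1 rose, 0 fell and 8 did not pass, where 2.02% of all genes were called in that comparison and 1.12% were called higher. Without replicate 2 of that combination the difference was log2 0.66 (adjusted p = 0.0646), and the fit on those 6 arrays alone gave adjusted p = 0.0793. With enzalutamide plus ABC294640 SLC7A11 was at log2 0.53 (SE 0.12, 95% CI 0.26 to 0.80, adjusted p = 0.073), with 0 of 9 members called against 0.701% of all genes.

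Single drugs left SLC7A11 below the threshold. It was at log2 0.22 with enzalutamide (95% CI -0.07 to 0.52, limma adjusted p = 0.532), 0.29 with PF-543 (95% CI 0.02 to 0.55, adjusted p = 0.292) and 0.09 on the ABC294640 array (95% CI -0.29 to 0.47, adjusted p = 0.915). Without DMSO arrays, SLC7A11 was at log2 0.42 for enzalutamide added to PF-543 (95% CI 0.16 to 0.69, adjusted p = 0.287), 0.44 for enzalutamide added to ABC294640 (95% CI 0.06 to 0.82, adjusted p = 0.645), 0.49 for PF-543 added to enzalutamide (95% CI 0.19 to 0.78, adjusted p = 0.407) and 0.31 for ABC294640 added to enzalutamide (95% CI 0.01 to 0.60, adjusted p = 0.726). None of these passed over all genes. The single effects of enzalutamide and PF-543 summed to log2 0.51 against 0.71 for the combination, an interaction of 0.20 (95% CI -0.20 to 0.60, adjusted p = 0.819).

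Glutamate-cysteine ligase, the enzyme that sets the rate of glutathione synthesis, did not pass in any of the 13 comparisons. Its catalytic subunit GCLC was 10.5, 10.4 and 10.79 with DMSO and 10.54, 10.63 and 10.79 with enzalutamide plus PF-543, so the ranges overlapped almost fully. The difference of GCLC from DMSO was log2 0.09 there (95% CI -0.19 to 0.37, limma adjusted p = 0.758), -0.01 with enzalutamide (95% CI -0.32 to 0.30) and -0.03 with PF-543 (95% CI -0.31 to 0.25). The other groups lay between 10.31 and 10.77. Without DMSO arrays, GCLC was at log2 0.12 for enzalutamide added to PF-543 (95% CI -0.16 to 0.40) and at 0.10 for PF-543 added to enzalutamide (95% CI -0.21 to 0.41).

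GCLM, the modifier subunit, was highest with the inhibitors given alone. It was 9.78, 9.88 and 10.01 with DMSO, 9.99, 10.24 and 10.11 with PF-543 and 10.18 on the ABC294640 array. With enzalutamide it was 9.93 and 9.92, with enzalutamide plus PF-543 9.96, 10.07 and 9.88, and with enzalutamide plus ABC294640 9.98, 9.82 and 9.85. The PF-543 and DMSO ranges touched, and the difference of log2 0.22 (95% CI 0.01 to 0.43, limma adjusted p = 0.298) did not pass. For the ABC294640 array the difference was log2 0.29 (95% CI -0.01 to 0.59, adjusted p = 0.539). With enzalutamide plus ABC294640, where CHAC1 was 2.95-fold above DMSO, GCLM had a mean of 9.88 against 9.89 with DMSO (log2 -0.01, 95% CI -0.22 to 0.20). PF-543 added to enzalutamide gave log2 0.05 (95% CI -0.19 to 0.28), against the 0.22 of PF-543 over DMSO. ABC294640 added to enzalutamide gave -0.04 (95% CI -0.28 to 0.19), against the 0.29 of the ABC294640 array over DMSO.

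GSS, which completes glutathione, was lowest on the DMSO arrays, at 11, 10.9 and 10.78. It was 11.17, 11.06 and 11.05 with PF-543, 11.09 on the ABC294640 array and 10.9 and 11.08 with enzalutamide. All 3 arrays of enzalutamide plus ABC294640 read 11.07, and those of enzalutamide plus PF-543 read 11.13, 11.09 and 11.11. The enzalutamide arrays overlapped DMSO and the others did not. GSS was at log2 0.22 with enzalutamide plus PF-543 (95% CI 0.03 to 0.40, limma adjusted p = 0.197) and at 0.20 with PF-543 (95% CI 0.01 to 0.39, adjusted p = 0.292), neither past the threshold. Without DMSO arrays, PF-543 added to enzalutamide gave log2 0.12 (95% CI -0.09 to 0.33).

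GPX4, the lipid peroxide reductase, was likewise lowest with DMSO, at 14.23, 14.17 and 14.24. The enzalutamide arrays read 14.3 and 14.39, the PF-543 arrays 14.26, 14.31 and 14.43, and the ABC294640 array 14.42. Enzalutamide plus ABC294640 gave 14.37, 14.41 and 14.29, and enzalutamide plus PF-543 gave 14.45, 14.38 and 14.43. All 12 treated arrays lay above all 3 DMSO arrays, by small steps. How many of all genes had this pattern was not counted, and the DMSO arrays stood apart over all genes as well. The largest difference among the replicated groups was log2 0.21 with enzalutamide plus PF-543 (95% CI 0.03 to 0.38, limma adjusted p = 0.188), and enzalutamide added to PF-543 gave 0.09 (95% CI -0.09 to 0.26).

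GSR, which reduces oxidised glutathione with NADPH, was the member whose mean was below DMSO in all 5 treated groups. It was 14.89, 14.77 and 14.62 with DMSO, 14.65 on the ABC294640 array, and 14.49 to 14.76 on the other treated arrays. All treated groups overlapped DMSO. With enzalutamide plus PF-543 the GSR difference from DMSO was log2 -0.16 (95% CI -0.36 to 0.05, limma adjusted p = 0.405) and with enzalutamide plus ABC294640 it was also -0.16 (95% CI -0.37 to 0.04, adjusted p = 0.425). Without DMSO arrays the differences were smaller, at -0.09 for enzalutamide added to PF-543 (95% CI -0.29 to 0.11) and -0.04 for PF-543 added to enzalutamide (95% CI -0.27 to 0.19).

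CTH, the enzyme that releases cysteine in transsulfuration, had means below DMSO with enzalutamide and with PF-543 and above it with both together. It was 6.74, 6.82 and 7.08 with DMSO, 6.73 and 6.53 with enzalutamide, and 6.53, 6.59 and 7.01 with PF-543. It was 7.35, 7.06 and 7.32 with enzalutamide plus PF-543, 7.14, 6.76 and 6.9 with enzalutamide plus ABC294640 and 6.87 on the ABC294640 array. The enzalutamide arrays lay below DMSO, and the arrays with enzalutamide plus PF-543 lay above those of either drug alone and overlapped DMSO.

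In numbers, CTH was at log2 -0.25 with enzalutamide (95% CI -0.61 to 0.11), -0.17 with PF-543 (95% CI -0.50 to 0.16) and 0.36 with the combination of these drugs (95% CI 0.04 to 0.69, limma adjusted p = 0.218). Against enzalutamide alone that combination was at log2 0.61 (95% CI 0.25 to 0.98, adjusted p = 0.373), and against PF-543 alone at 0.53 (95% CI 0.21 to 0.86, adjusted p = 0.271). The single effects summed to -0.42, and the interaction was log2 0.78 (SE 0.23, 95% CI 0.29 to 1.27, unadjusted p = 0.00429, adjusted p = 0.439). None of these differences passed over all genes, and 0 of 9 members and 0% of all genes had an interaction of enzalutamide with PF-543, or with ABC294640, past the threshold. At an unadjusted p under 0.05 the members' counts were 1 and 0, where 1428 and 1459 of all 17687 genes were under that cut. Without detection calls it is unknown whether CTH, whose mean lay near the array median, was above background.

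CBS, the first enzyme of transsulfuration, was highest with enzalutamide alone. It was 13.46, 13.42 and 13.51 with DMSO, 13.79 and 13.69 with enzalutamide, and 13.69, 13.54 and 13.54 with PF-543. It was 13.65, 13.62 and 13.55 with enzalutamide plus ABC294640, 13.53, 13.66 and 13.68 with enzalutamide plus PF-543 and 13.55 on the ABC294640 array. Every treated array lay above the DMSO arrays, a pattern whose share over all genes was not counted, and the whole range over the 15 arrays was 0.37. The enzalutamide difference of log2 0.28 (95% CI 0.07 to 0.48, limma adjusted p = 0.239) did not pass. Without DMSO arrays it was not seen at that size: enzalutamide added to PF-543 gave log2 0.03 (95% CI -0.15 to 0.21) and added to ABC294640 0.06 (95% CI -0.20 to 0.31). PF-543 had 0.13 over DMSO (95% CI -0.05 to 0.31) and -0.12 when added to enzalutamide (95% CI -0.32 to 0.09). The other CBS probe set, examined after the values were seen, gave log2 0.22 for it (adjusted p = 0.417) and read 12.85 on both enzalutamide arrays against 12.6, 12.6 and 12.7 with DMSO. On that probe set PF-543 (from 12.66), the ABC294640 array (12.7) and enzalutamide plus PF-543 (from 12.62) overlapped DMSO, unlike on the first. The gene has a near-identical copy, listed in RefSeq under the synonym CBSL, whose transcripts these probe sets may not tell apart.

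**Figure D3:**
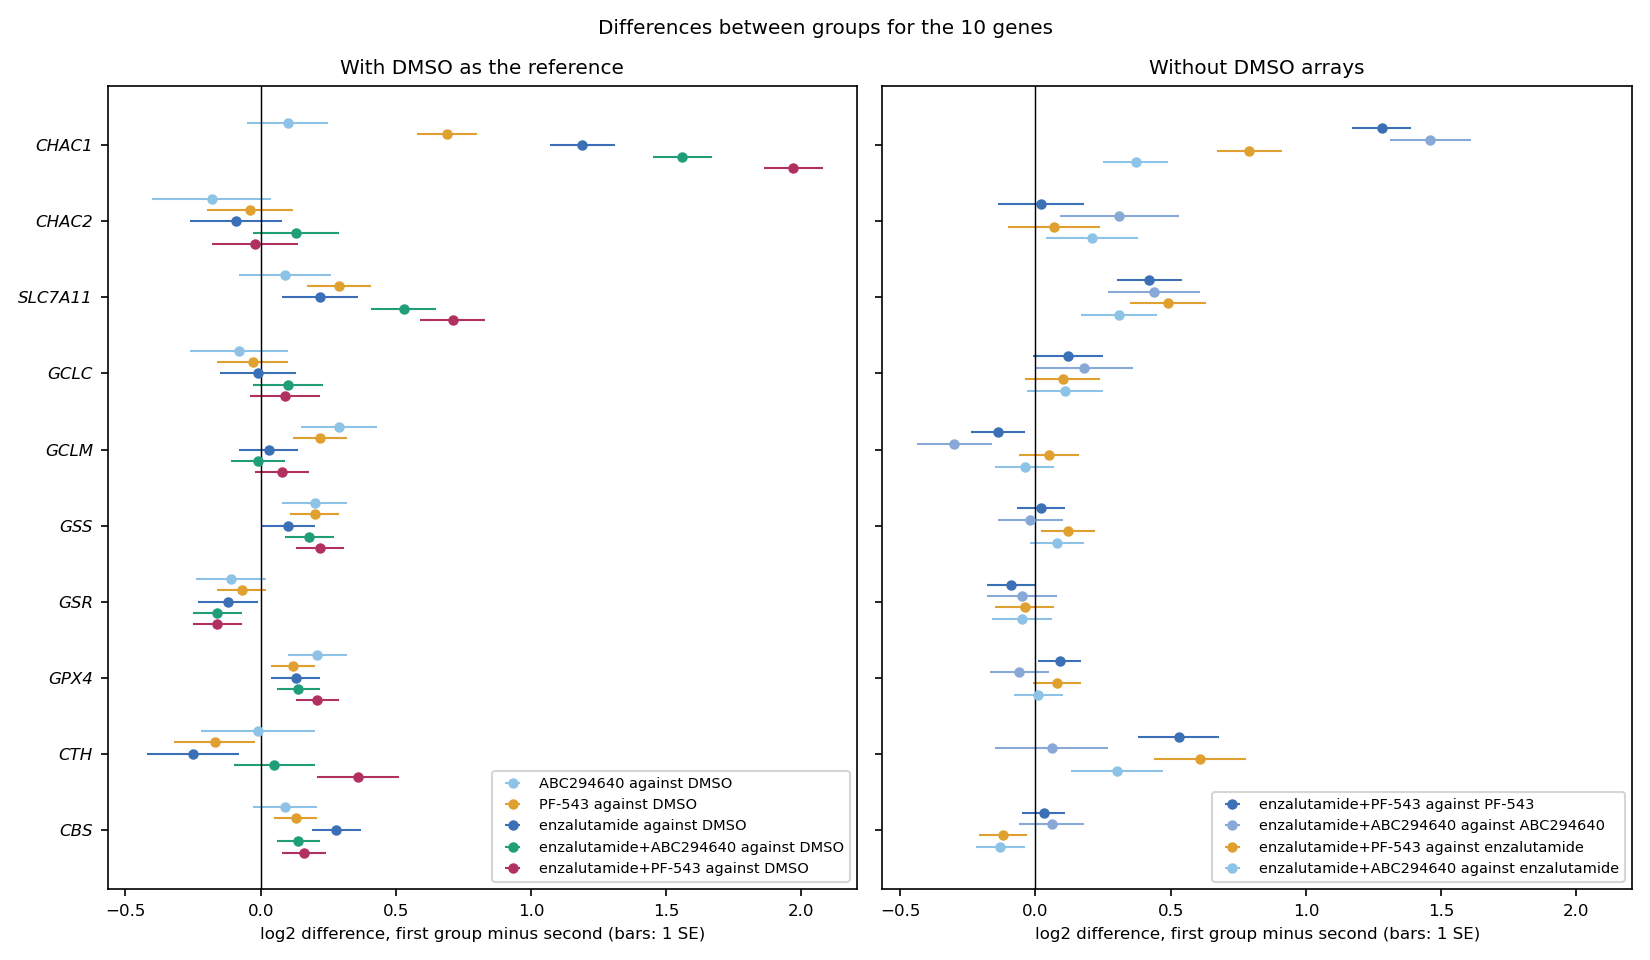
Log2 differences between groups for the 10 members, first group minus second, with bars of 1 SE; the left panel has DMSO as the reference, and the right panel shows each drug added to another drug, with no DMSO array. CHAC1 lies apart from 0 in all comparisons but the single ABC294640 array, SLC7A11 reaches log2 0.71 in the left panel, and CTH lies at 0.61 and 0.53 where PF-543 and enzalutamide were combined.

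Across the 9 tested members, 0 were called with enzalutamide against DMSO (0.311% of all genes were), 0 with PF-543 (0.565% of all genes) and 0 on the ABC294640 array (0% of all genes). At an unadjusted p under 0.05 the counts were 1, 3 and 0, where 2273, 2733 and 1693 of all 17687 genes were under that cut. The median member lay at log2 0.03, 0.12 and 0.09, against -0.01 over all genes in each of these comparisons, and at 0.16 and 0.13 with the PF-543 and ABC294640 combinations, again against -0.01.

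Without DMSO arrays, 0 of 9 were called in each of 4 comparisons. They were PF-543 added to enzalutamide (0.0283% of all genes called), ABC294640 added to enzalutamide (0%), enzalutamide added to PF-543 (0.311%) and enzalutamide added to ABC294640 (0.0792%). At an unadjusted p under 0.05 the counts were 2, 1, 2 and 1, where 1385, 1200, 1462 and 1229 of all 17687 genes were under that cut. A robust, trended prior in limma also called 0 of 9.

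The arrays of 3 members, GPX4, CTH and CBS, did not overlap between enzalutamide and DMSO (28.1% of all genes), with CTH lower, and those of GSS, GPX4 and CBS did not between PF-543 and DMSO (20.2% of all genes). Those of 4 members, SLC7A11, GSS, GPX4 and CBS, did not overlap between enzalutamide plus PF-543 and DMSO, all 4 higher, where 23.7% of all genes did not overlap and 12.1% were higher. The same number, and the same 4, did not overlap with enzalutamide plus ABC294640 (19.2% of all genes, 9.48% higher), a comparison that shares the DMSO arrays. For CBS these counts use the probe set with the higher mean; on the other one, PF-543 and enzalutamide plus PF-543 overlapped DMSO. Without DMSO arrays, for enzalutamide added to PF-543, the differences of GSS, GPX4 and CBS were log2 0.02, 0.09 and 0.03.

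The inhibitors were compared at the matched dose of 15 µM, as 2 pairs. CHAC1 was 1.33-fold higher with PF-543 than with ABC294640 in cells that also had enzalutamide (log2 0.41, SE 0.11), with no overlap between arrays, and 1.5-fold higher in cells that had not (log2 0.59, SE 0.15, 1 ABC294640 array). Of the 9 tested members 0 differed in the first pair (limma, smallest adjusted p = 0.709; 0.0961% of all genes called) and 0 in the other (smallest adjusted p = 0.999; 0.017% of all genes), with 0 at an unadjusted p under 0.05 in either. With enzalutamide present, SLC7A11 differed by log2 0.18 (95% CI -0.09 to 0.45), CTH by 0.31 (95% CI -0.02 to 0.64) and GCLM by 0.09 (95% CI -0.12 to 0.30). These intervals leave room for differences of the size seen for CHAC1 in SLC7A11 and CTH.

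Over the 15 arrays, XBP1, which encodes a transcription factor of the unfolded protein response, had the log2 pattern most like CHAC1 (Pearson r = 0.97, Spearman rho = 0.95). It was followed by the secreted stanniocalcin STC2 (r = 0.93, rho = 0.90), the stress protein SESN2 (r = 0.93, rho = 0.96), the asparagine synthetase ASNS (r = 0.93, rho = 0.92) and the seryl-tRNA synthetase SARS1 (r = 0.92, rho = 0.92). XBP1 went from a mean of 12.53 with DMSO through 12.62 with ABC294640, 12.69 with PF-543, 12.86 with enzalutamide and 12.96 with enzalutamide plus ABC294640 to 13.05 with enzalutamide plus PF-543, the order of CHAC1 on a smaller scale. The most opposite patterns were those of FAM110B (r = -0.93, rho = -0.88), CCDC141 (r = -0.93, rho = -0.87) and KLK3, which encodes prostate-specific antigen (r = -0.92, rho = -0.88).

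Among the members, SLC7A11 came closest to CHAC1 (r = 0.90, rho = 0.90), number 12 of 17686 genes. GPX4 (r = 0.62), CBS (0.60), GSS (0.49), CTH (0.48), GCLC (0.41) and CHAC2 (0.23) followed, with GCLM at -0.14 and GSR at -0.58. Without the 2 arrays farthest from the CHAC1 median, both DMSO, r was 0.85 for SLC7A11 and 0.97 for XBP1. The other members moved more: GCLM went to -0.54, GSR to -0.32, GPX4 to 0.42, CBS to 0.39, GSS to 0.39 and GCLC to 0.25, with CTH at 0.46 and CHAC2 at 0.21. Over the 12 treated arrays alone r was still 0.85 for SLC7A11. It was 0.01 for GSS, 0.23 for GPX4, 0.26 for CBS and -0.60 for GCLM. For GSS, GPX4, CBS and GCLM the r over all arrays thus depends on the DMSO arrays. These correlations are mostly between groups: the arrays share their group's drugs, and with group means taken off r was 0.61 for SLC7A11, 0.63 for XBP1, -0.08 for STC2 and 0.72 for KLK3. They are descriptions of 15 arrays in 6 groups, not tests.

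**Figure D4:**
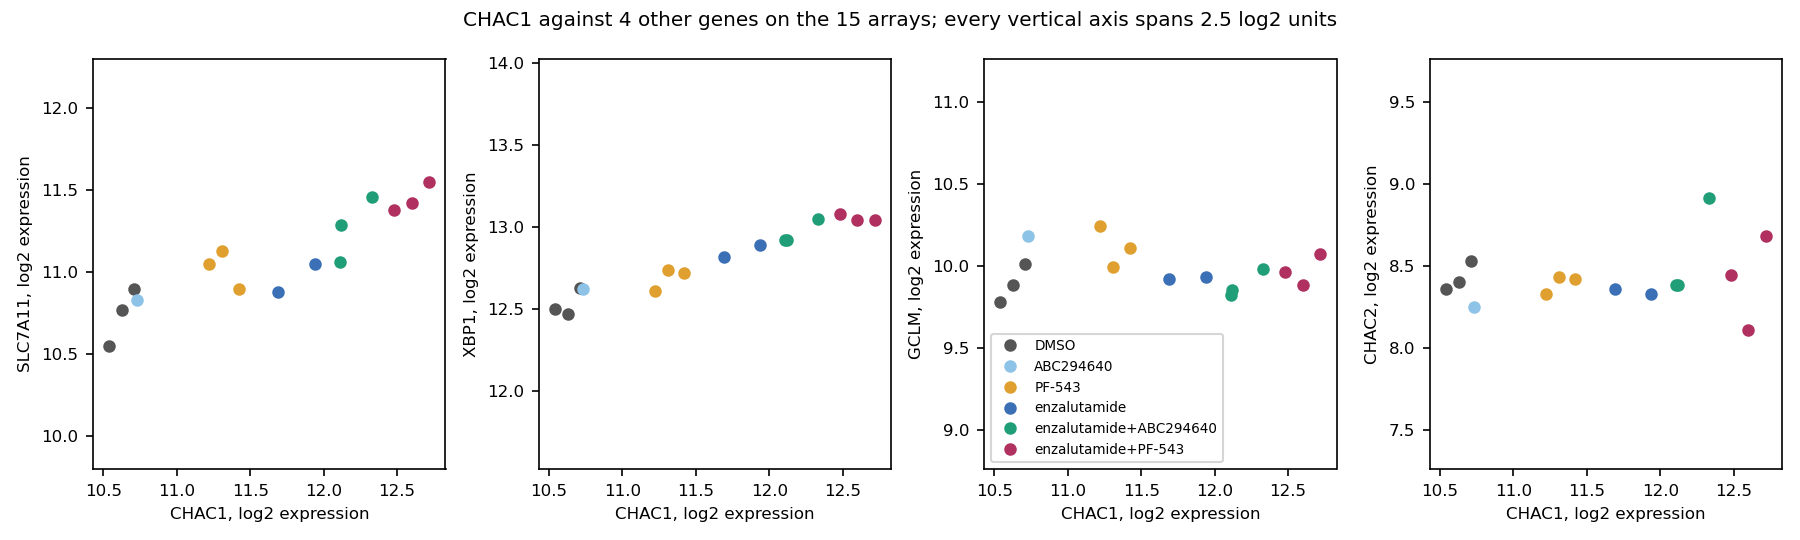
CHAC1 (horizontal axis) against SLC7A11, XBP1, GCLM and CHAC2 (vertical axes), log2 expression on the 15 arrays coloured by group; every vertical axis spans 2.5 log2 units. SLC7A11 (r = 0.90) and XBP1 (r = 0.97) climb with CHAC1, while GCLM (r = -0.14, and -0.60 on the treated arrays) and CHAC2 (r = 0.23) do not climb with it.

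The wider pathway was read from 10 lists of related genes, 130 of whose 141 members were measured. With enzalutamide plus PF-543 against DMSO 5 rose and 1 fell (median log2 0.04, against -0.01 over all genes), which is 4.62% of the listed genes where 2.02% of all genes were called. Of the 5 that rose, 4 (ATF4, DDIT3, ATF3 and TRIB3) lay in the ATF4 control list, which was chosen with responses of these arrays known. The pooled share is therefore not a result about the other lists. With enzalutamide plus ABC294640 2 rose and 1 fell (2.31%, against 0.701% of all genes), with PF-543 1 rose (0.769%, against 0.565%), and with enzalutamide or on the ABC294640 array 0 passed. The 0 called of the glutathione breakdown and cysteine recovery genes (10 measured), the other peroxidases and glutaredoxins (12), the glutathione S-transferases (20), the methionine cycle and sulfur amino acid genes (17), the amino acid carriers (13), NRF2 and its control (9) and selenoprotein synthesis (7) held in each of the 13 comparisons. With enzalutamide plus PF-543 their medians ran from log2 -0.06 for the methionine cycle to 0.15 for the carriers and for NRF2 and its control.

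The calls lay in 3 lists. Of 12 genes for NADPH supply and thioredoxin, ME1, the malic enzyme that makes NADPH, rose with PF-543 (log2 0.60, SE 0.11, limma adjusted p = 0.0297), and TXNIP, the inhibitor of thioredoxin, fell with enzalutamide plus PF-543 (log2 -0.91, SE 0.16, adjusted p = 0.0168) and with enzalutamide plus ABC294640 (log2 -0.92, SE 0.16, adjusted p = 0.0243). Of 20 ferroptosis genes, NCOA4, which delivers ferritin for breakdown, rose with enzalutamide plus PF-543 (log2 0.49, SE 0.09, adjusted p = 0.0174) and with enzalutamide plus ABC294640 (log2 0.44, SE 0.09, adjusted p = 0.0424). Without DMSO arrays none of these passed: ME1 was at log2 0.21 for PF-543 added to enzalutamide (adjusted p = 0.716), NCOA4 at 0.08 for enzalutamide added to PF-543 (adjusted p = 0.877), and TXNIP at -0.36 there (adjusted p = 0.592) and at -1 for enzalutamide added to the single ABC294640 array (adjusted p = 0.264). Each of these 5 calls was lost in some of 24 alternatives: that of ME1 in 8, those of TXNIP in 2 and NCOA4 in 5 with enzalutamide plus PF-543, and those of TXNIP in 6 and NCOA4 in 16 with enzalutamide plus ABC294640. Against DMSO, TXNIP was at log2 -0.85 with enzalutamide alone (limma adjusted p = 0.0883) and -0.55 with PF-543 alone (adjusted p = 0.14). On the single ABC294640 array it was at 0.08. NCOA4 was at 0.33 with enzalutamide (adjusted p = 0.187), 0.41 with PF-543 (adjusted p = 0.066) and 0.53 on the ABC294640 array. Added to enzalutamide, PF-543 and ABC294640 gave TXNIP differences of -0.07 and -0.08.

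The ATF4 control list held most of the calls, with 4 of 10 higher and 0 lower for enzalutamide plus PF-543 against DMSO (median log2 0.23), where 1.12% of all genes were called higher. The list was chosen with responses of these arrays known and is not independent evidence. The limma fit put ATF4 itself at log2 0.38 (SE 0.08, adjusted p = 0.0335), DDIT3, which encodes CHOP, at 1.66 (SE 0.19, adjusted p = 0.00114), TRIB3, a pseudokinase induced by stress, at 1.27 (SE 0.15, adjusted p = 0.00138) and ATF3 at 0.82 (SE 0.13, adjusted p = 0.00846). Without DMSO arrays, DDIT3 rose for enzalutamide added to PF-543 (log2 1.64, SE 0.19, adjusted p = 0.00167), where CHAC1 was higher by 1.28. ATF4 was at 0.22 there (adjusted p = 0.479) and TRIB3 at 0.66 (adjusted p = 0.152), and for PF-543 added to enzalutamide they were at 0.07 (adjusted p = 0.894) and 0.90 (adjusted p = 0.155). DDIT3 was at 0.83 for PF-543 added to enzalutamide (adjusted p = 0.353). For enzalutamide added to PF-543 ATF3 was at 0.30 (adjusted p = 0.574). ATF3 rose for PF-543 added to enzalutamide (log2 1.05, SE 0.14, adjusted p = 0.0305), and with enzalutamide present it was higher with PF-543 than with ABC294640 (log2 0.82, SE 0.13, adjusted p = 0.0358). TRIB3 also rose with enzalutamide plus ABC294640 against DMSO (log2 0.77, SE 0.15, adjusted p = 0.0424). The calls of DDIT3, and those of TRIB3 and ATF3 for enzalutamide plus PF-543 against DMSO, held in all 24 alternatives. The call of ATF4 was lost in 9 of 24 (adjusted p up to 0.143), that of TRIB3 with enzalutamide plus ABC294640 in 16 (up to 0.145), and those of ATF3 in 12 against enzalutamide (up to 0.322) and in 15 against enzalutamide plus ABC294640 (up to 0.192).

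With either drug alone, DDIT3 and ATF3 did not pass. Enzalutamide alone put DDIT3 at log2 0.83 (SE 0.22, limma adjusted p = 0.151) and ATF3 at -0.23 (SE 0.14, adjusted p = 0.535). With PF-543 alone DDIT3 was at 0.02 (SE 0.19, adjusted p = 0.977) and ATF3 at 0.52 (SE 0.13, adjusted p = 0.092). The difference between these drugs was not tested.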

How the data were processed

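RNA of C42B cells was measured on 15 whole-transcript Affymetrix arrays in 6 groups taken from the labels. The authors deposited log2 values for each probe set, made with RMA and Transcriptome Analysis Console 4.02 per the submitters' processing notes; for the RMA variant, annotation version and build the sources used here give nothing. RMA brings the arrays towards a common distribution, which can hide a change that most genes share. The deposited values were not fully alike, with array SDs of 3.295 to 3.364. Detection calls were not used here. Of 21448 probe sets 17709 had 1 gene symbol, all matched to RefSeq, 0 had several and 3739 had none; the probe set with the highest mean stood for each of 17687 genes.

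Group means were fitted to all 15 arrays with limma 3.58.1 in R 4.3.3 (9 residual and 3.82 prior degrees of freedom), with 13 comparisons and Benjamini-Hochberg adjustment over all genes at 0.05. The single ABC294640 array is thereby assumed to vary like the other groups. A fold is 2 to the power of the log2 difference. Members and lists were chosen with earlier results of these data known. Named are all members, the 5 genes most like and the 3 least like CHAC1, and the up to 4 called genes of each list with the largest difference. Columns of all arrays were used, and 0 pairs of arrays were identical.

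Same-numbered arrays of different groups did not deviate together from their group means (26 pairs, correlations -0.09 to 0.14, median -0.01). Alternatives were 3 normalizations, leaving out the dimmest 25% of genes, all probe sets, a robust, trended prior, array weights, the arrays of a comparison alone, a replicate block, and leaving out each array. Data were also simulated for 17687 genes, 200 of them changed, with normal noise that was independent between genes and arrays. There, enzalutamide plus PF-543 against DMSO recovered 34% of changes of log2 0.5 and 83% of changes of log2 1. Beside these true calls, 12 unchanged genes were called. For ABC294640 against DMSO it was 6% and 52%, with 4 unchanged genes called. Recovery and the share of false calls may differ on the real arrays. Figures were drawn with matplotlib 3.10.9.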

Additional observations from a re-analysis of the deposited data

How the results depend on the processing

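The CHAC1 differences kept their direction in each alternative run, except that the interaction of enzalutamide and PF-543 ran from -0.03 to 0.22 when 1 array was left out. Leaving out 1 array gave 1.06 to 1.31 for enzalutamide against DMSO, 0.66 to 0.91 for PF-543 and 0.25 to 0.50 for ABC294640 added to enzalutamide, and 0.14 to 0.39 for the interaction with ABC294640; the enzalutamide arrays set both ends. Without DMSO arrays, CHAC1 was at 1.46 for enzalutamide (on ABC294640) and 0.37 for ABC294640 (on enzalutamide). The count of 1 called member with enzalutamide plus PF-543, SLC7A11, was 0 on the arrays of that comparison alone (adjusted p = 0.0793), 0 to 1 when 1 array was left out, with 0 without replicate 2 of that combination (adjusted p = 0.0646), and 2 with a robust, trended prior, where GPX4 joined (adjusted p = 0.0226). SLC7A11 stayed called in 22 of 24 alternatives, from log2 0.62 to 0.79. The count of 0 became 1 for enzalutamide plus ABC294640, SLC7A11, without the dimmest genes (adjusted p = 0.0473) or with the robust prior (adjusted p = 0.00442), and 1 for enzalutamide, CBS, with the robust prior (adjusted p = 0.0412). The labels do not say whether the replicate numbers pair the samples, and the low correlations of same-numbered arrays cannot exclude it. With the replicate block SLC7A11 was at log2 0.71 (limma adjusted p = 0.0372), and no count of called members changed. The ABC294640 array has no number and was left out of that fit. Among listed genes, DDIT3, TRIB3 and ATF3 kept their call with enzalutamide plus PF-543 against DMSO in 24 of 24 alternatives. Leaving out 1 array ended the call of ATF4 there for 6 of 15 arrays (adjusted p = 0.05 to 0.109), of NCOA4 for 4 (0.054 to 0.0666) and of TXNIP for 1, DMSO replicate 2 (adjusted p = 0.0638). With enzalutamide plus ABC294640 it ended that of NCOA4 for 12, TRIB3 for 12 and TXNIP for 5, that of ME1 with PF-543 for 6, and that of ATF3 for 10 against enzalutamide and for 13 against enzalutamide plus ABC294640. Outside these, 21 calls of listed genes were lost in all, most on the arrays of the comparison alone or with the replicate block, others with quantile or cyclic loess normalization, array weights or no DMSO array. Of the 5 genes most like CHAC1, 3 were also among the first 5 by Spearman rho and 0 with group means taken off.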
